A study of Mus musculus with 4 samples.

Results

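The genes described are the 10 dual specificity phosphatases of MAP kinases Dusp1, Dusp2, Dusp4, Dusp5, Dusp6, Dusp7, Dusp8, Dusp10, Dusp14 and Dusp16, out of 24555 genes and transcripts tested on 4 mouse arrays. They were taken by symbol, as family members, and the family was picked with earlier results of these data known. The array carried 12 probes for them, 2 each for Dusp1 and Dusp14 and 1 for each of the others, and all 12 were well above background on all 4 arrays. Where a gene had 2 probes, the one with the higher mean level over the 4 arrays stood for it.

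MAP kinases such as ERK, JNK and p38 are switched on when an upstream kinase phosphorylates a threonine and a tyrosine in their activation loop. Dual specificity phosphatases remove both phosphates and so switch the kinases off. Several of these phosphatase genes are themselves transcribed in response to the kinases they turn off, which makes them both regulators and readouts of the pathway. The family differs in location and substrate: Dusp1, Dusp2, Dusp4 and Dusp5 encode inducible nuclear enzymes, Dusp6 and Dusp7 encode cytoplasmic enzymes that prefer ERK, and Dusp8, Dusp10 and Dusp16 encode enzymes that prefer JNK and p38. Dusp14 encodes a small atypical member that lacks the MAP kinase binding domain of the others.

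Total RNA came from C3H10T1/2, a mouse embryo fibroblast line, that had been transformed in culture. Both groups carried the same history of 2.5 µg/ml 3-methylcholanthrene (3MC, a carcinogenic hydrocarbon) for 2 days, 100 ng/ml of the phorbol ester TPA over 2 weeks, and 4 weeks without TPA. One group of 2 samples was then exposed to 0.25 mM diethyl maleate (DEM), an electrophile that conjugates to glutathione, and the other group of 2 samples was untreated. The comparison asks how transformed cells respond to DEM, and no source used here states how long the exposure lasted. Untransformed cells were not analysed here. The labels number the samples 1 and 2 within a group and do not say that they came from separate cultures, so a p-value here reflects no more than how far these samples differ, which could be technical.

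Levels are log2 processed signal relative to the array's 75th percentile, so a level of 0 is a spot as bright as that percentile, and levels of different probes cannot be set against each other. The unscaled 75th percentile signal was 449.9 and 412.5 on the DEM arrays, against 701.3 and 747.2 on the untreated arrays. Of non-control spots, 47.8% to 52.7% per array were well above background. Across all genes, limma with Benjamini-Hochberg adjustment and a threshold of 0.05 called 27.3% different in either direction, 15.5% higher (3800 genes) and 11.8% lower (2892 genes) with DEM. The split of calls depended on the scaling, at 2578 higher and 3558 lower with the percentile taken over probes above background on all arrays, 2525 and 3653 with cyclic loess, and 362 and 887 with spike-in RNA. The median log2 fold change of all genes was 0.16 here and 0.0027, 0.01 and 0.0014 under those scalings. Of 10 fibroblast markers, 10 were measured and 5 fell with DEM, with median levels of 5.05 and 4.55 on the DEM arrays against 6.15 and 6.16 on the untreated arrays; the part of this fall, and of the dimmer DEM arrays, in the results was not tested. The macrophage markers Ptprc, Adgre1 and Csf1r and the endothelial markers Pecam1, Cdh5 and Kdr were not among the genes tested. Nor were the epithelial markers Epcam, Cdh1 and Krt18 or the skeletal muscle markers Myod1, Myog and Ckm. Of the macrophage list 2 of 5 were tested (Cd68, Lyz2) and of the endothelial list 1 of 4 (Tek). Of the epithelial list 3 of 6 were tested (Krt5, Krt8, Krt14) and of the skeletal muscle list 1 of 4 (Acta1). Cd68, Lyz2, Krt8, Krt14 and Acta1 were well above background on all 4 arrays. Among those tested, Lyz2, Tek and Acta1 were called lower with DEM. Tek was not well above background on the DEM arrays and passed the filter on dim probes through the untreated arrays alone. Bulk RNA cannot tell fewer cells of a type from less RNA per cell.

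Among the 10 phosphatases, Dusp4 rose with DEM and Dusp8 fell, while the other 8 did not pass the test. The 2 called of 10 stand beside 27.3% called among all genes. The log2 fold change was positive for 4 members and negative for 6, with a median of -0.41 beside a median of 0.16 over all genes tested. Leaving out 1 array changed which members were called lower, and it also changed the number called over all genes. With 1 array left out, the log2 fold change was 3.43 to 3.60 for Dusp4 and -2.23 to -1.28 for Dusp8. It was -1.37 to 0.69 for Dusp2, -1.26 to -0.26 for Dusp5, -0.81 to -0.15 for Dusp7 and -1.12 to -0.49 for Dusp14. In 7 of the 10 members the DEM and untreated arrays did not overlap, beside 68.4% of all genes tested. The plot of levels by array shows the 2 called genes as the widest separations and also shows the members whose replicate arrays lay far apart.

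**Figure D1:**
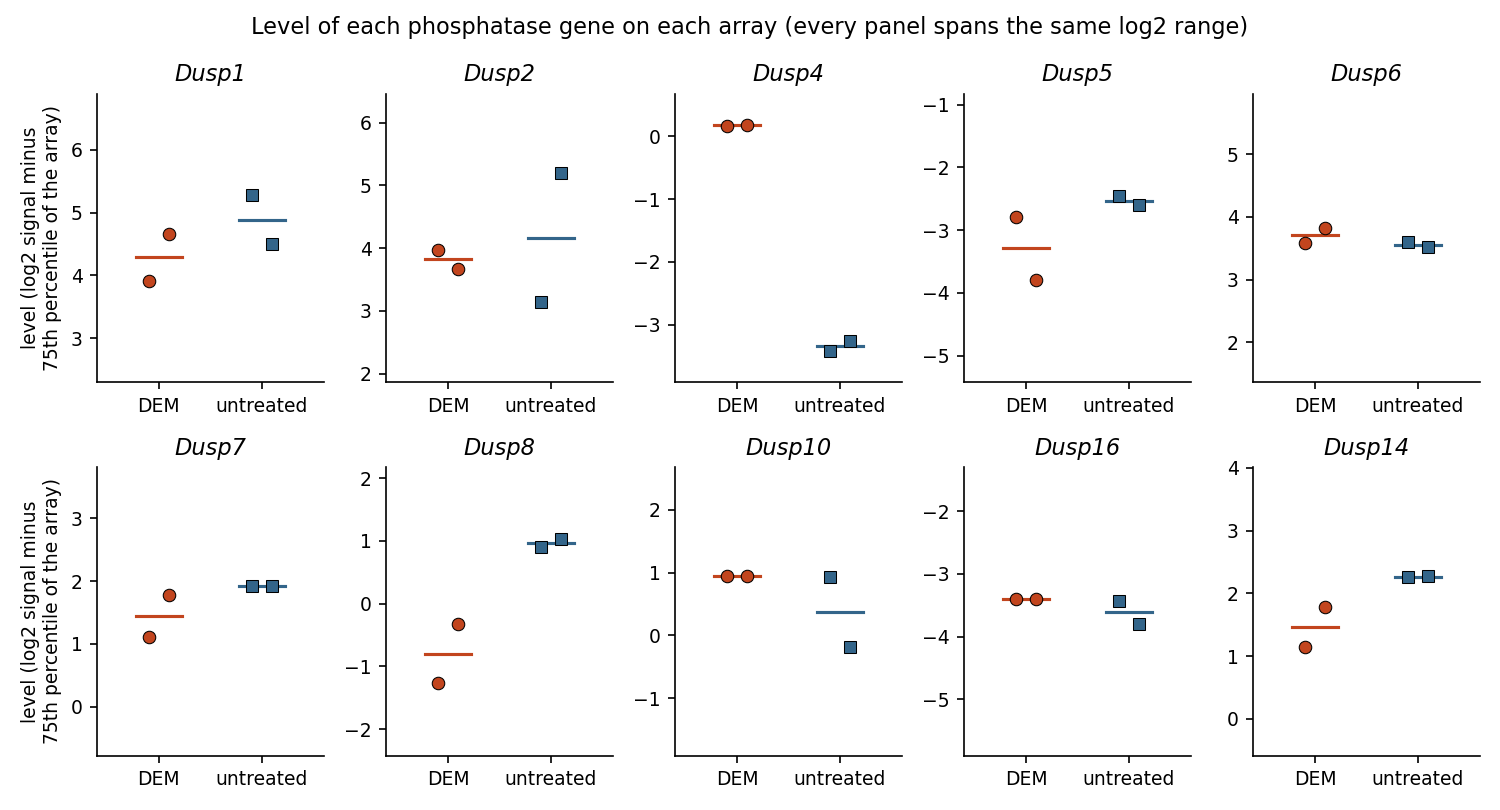
Level (log2 processed signal relative to the array's 75th percentile) of each phosphatase gene on each of the 2 DEM arrays (circles) and the 2 untreated arrays (squares), with group means as lines. Every panel spans the same log2 range, and panels are not to be compared for absolute level. Dusp4 sat at 0.17 and 0.18 on the DEM arrays against -3.42 and -3.26 on the untreated arrays, and the untreated arrays of Dusp2 differed by 2.06.

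Dusp4 encodes an inducible nuclear phosphatase that acts on ERK and JNK. Its level was 0.17 and 0.18 on the DEM arrays and -3.42 and -3.26 on the untreated arrays. Both DEM arrays lay far above both untreated arrays, and each pair of replicates lay close together. The unscaled processed signal was 505.8 and 468.0 on the DEM arrays and 65.5 and 78.3 on the untreated arrays, so the direction was the same before scaling, although the DEM arrays were dimmer in general. Dusp4 rose 11.4-fold (95% confidence interval 7.92 to 16.5), a log2 fold change of 3.51 ± 0.22 (SE, n = 2 arrays per group) with a limma adjusted p of 0.000807. A log2 fold change of this size or more was seen in 127 genes, or 0.517% of those tested. The size of the rise depended on the background correction. With normexp the log2 fold change was 2.64, below the interval of 2.98 to 4.04 on the log2 scale. The call held in 15 of 15 alternative settings, with log2 fold changes of 2.64 to 3.60 and limma adjusted p-values of 0.000219 to 0.0163.

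The other 3 inducible nuclear phosphatases did not pass the test. Dusp1, the classic immediate early stress response phosphatase of p38, JNK and ERK, had levels of 3.92 and 4.65 on the DEM arrays and 5.28 and 4.50 on the untreated arrays. The groups overlapped, since the higher DEM array exceeded the lower untreated array. Its log2 fold change was -0.60 ± 0.34 (SE, n = 2), with an interval of -1.44 to 0.23 and a limma adjusted p of 0.237. The second Dusp1 probe gave 3.64 and 4.32 on the DEM arrays and 4.99 and 4.27 on the untreated arrays. Both probes put the 4 arrays in the same order, with DEM 1 lowest, then untreated 2, DEM 2 and untreated 1. The second probe had a log2 fold change of -0.65 ± 0.32 (SE).

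Dusp2, a nuclear phosphatase best known from immune cells, had levels of 3.98 and 3.67 on the DEM arrays and 3.14 and 5.19 on the untreated arrays. The 2 untreated arrays lay on either side of both DEM arrays and differed by 2.06 on the log2 scale, a gap that only 0.509% of tested genes reached between those 2 arrays. On average Dusp2 had a log2 fold change of -0.34 ± 0.62 (SE, n = 2), with an interval of -1.85 to 1.17 and a limma adjusted p of 0.711. Without untreated 1 it was -1.37 with a limma adjusted p of 0.0441, and without untreated 2 it was 0.69 with a limma adjusted p of 0.185, so its direction rested on a single untreated array.

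Dusp5, a nuclear phosphatase that is specific for ERK, had levels of -2.79 and -3.79 on the DEM arrays and -2.46 and -2.60 on the untreated arrays. Both DEM arrays were below both untreated arrays, but the DEM arrays differed from each other by 0.997 and DEM 1 lay near the untreated arrays. Its log2 fold change was -0.76 ± 0.38 (SE, n = 2), with an interval of -1.70 to 0.18 and a limma adjusted p of 0.190. Without DEM 1 the log2 fold change was -1.26 with a limma adjusted p of 0.0157, without DEM 2 it was -0.26 with a limma adjusted p of 0.476, and with normexp it was -0.18.

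The cytoplasmic ERK phosphatases Dusp6 and Dusp7 did not pass the test either. Dusp6, a standard feedback target of ERK signalling, had levels of 3.59 and 3.82 on the DEM arrays and 3.59 and 3.51 on the untreated arrays. The 4 arrays lay close together and the groups overlapped. Its log2 fold change of 0.15 ± 0.17 (SE, n = 2) had the narrowest interval among the uncalled members, -0.27 to 0.56, and a limma adjusted p of 0.546. Relative to the median of all genes it was -0.01, and its sign turned under 4 other scalings (-0.06 with cyclic loess, -0.03 with quantile normalization, -0.0098 with spike-in RNA and -0.0085 with the percentile over detected probes).

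Dusp7 had levels of 1.11 and 1.78 on the DEM arrays and 1.92 and 1.92 on the untreated arrays. Both DEM arrays were lower, one of them by little. The log2 fold change was -0.48 ± 0.26 (SE, n = 2), with an interval of -1.10 to 0.15 and a limma adjusted p of 0.214. Without DEM 2 it was -0.81 with a limma adjusted p of 0.0214, and without DEM 1 it was -0.15 with a limma adjusted p of 0.603. A further probe that the files name LOC674944, described there as a predicted transcript similar to Dusp7, gave 1.41 and 1.54 on the DEM arrays and 1.75 and 1.58 on the untreated arrays. Both DEM arrays were again lower, with a log2 fold change of -0.19 ± 0.18 (SE, limma adjusted p over probes 0.483). Whether these probes separate the transcripts was not tested.

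Dusp8 encodes a phosphatase of JNK and p38. Its level was -1.27 and -0.32 on the DEM arrays and 0.90 and 1.02 on the untreated arrays. Both DEM arrays lay below both untreated arrays, the untreated arrays were close together and the DEM arrays differed by 0.944. The unscaled processed signal was 186.7 and 329.5 on the DEM arrays and 1305 and 1519 on the untreated arrays. Dusp8 fell 3.38-fold (interval 1.93 to 5.91), a log2 fold change of -1.76 ± 0.33 (SE, n = 2) with a limma adjusted p of 0.0143. A log2 fold change this low or lower was seen in 1305 genes, or 5.31% of those tested. The direction held in 15 of 15 alternatives and the call in 12: it was lost with spike-in scaling (limma adjusted p 0.13), without untreated 1 (0.0788) and without untreated 2 (0.0952), fits in which 5.09%, 6.87% and 5.81% of all genes passed.

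Dusp10 and Dusp16 share the JNK and p38 preference of Dusp8 and did not pass the test. Dusp10 had levels of 0.95 and 0.94 on the DEM arrays and 0.93 and -0.18 on the untreated arrays. The DEM arrays and untreated 1 were nearly equal, and untreated 2 alone was low, a gap between untreated arrays of 1.11 that 1.87% of tested genes reached. Dusp10 had a log2 fold change of 0.58 ± 0.37 (SE, n = 2), with an interval of -0.32 to 1.47 and a limma adjusted p of 0.283, and it was 0.02 without untreated 2 and 1.13 without untreated 1. Dusp16 had levels of -3.40 and -3.40 on the DEM arrays and -3.43 and -3.79 on the untreated arrays. These arrays lay close together, the DEM arrays just above the higher untreated array. The log2 fold change of Dusp16 was 0.21 ± 0.29 (SE, n = 2), with an interval of -0.51 to 0.93 and a limma adjusted p of 0.629. With normexp background correction it was 0.39 with a limma adjusted p of 0.0442, in a fit that called 37.4% of all genes. That setting raised the number of members called higher to 2. The unscaled processed signal of Dusp16 was faint, at 42.5 and 39.1 on the DEM arrays and 64.8 and 54.0 on the untreated arrays. Before scaling it was therefore lower with DEM.

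Dusp14 encodes the atypical phosphatase of the set, known in T cells as a negative regulator of signalling. Its brighter probe had levels of 1.15 and 1.78 on the DEM arrays and 2.25 and 2.28 on the untreated arrays. Both DEM arrays were below both untreated arrays. For the gene the log2 fold change was -0.80 ± 0.25 (SE, n = 2), a 1.74-fold difference with an interval of -1.41 to -0.19 on the log2 scale and a limma adjusted p of 0.0601, which did not pass. The dimmer probe gave -0.09 and 0.35 on the DEM arrays and 1.27 and 1.35 on the untreated arrays, again with no overlap. Its log2 fold change was -1.18 ± 0.22 (SE), 2.27-fold lower, with a limma adjusted p of 0.0139 over the 31771 probes, of which 26.8% were called in either direction and 12.2% lower. Dusp14 as a gene passed in 7 of the 11 alternatives with all 4 arrays, and over those 11 its log2 fold changes were -0.99 to -0.79. The value of -0.99 was that of the mean of both probes (limma adjusted p 0.0277). With 1 array left out, the log2 fold change of the gene was -1.12 to -0.49. The sequence of the dimmer probe, a 60-base oligonucleotide for a gene on chromosome 11, is shown because it is the one whose own test passed.
Dusp14 probe: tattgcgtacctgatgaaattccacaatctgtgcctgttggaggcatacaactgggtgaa

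**Figure D2:**
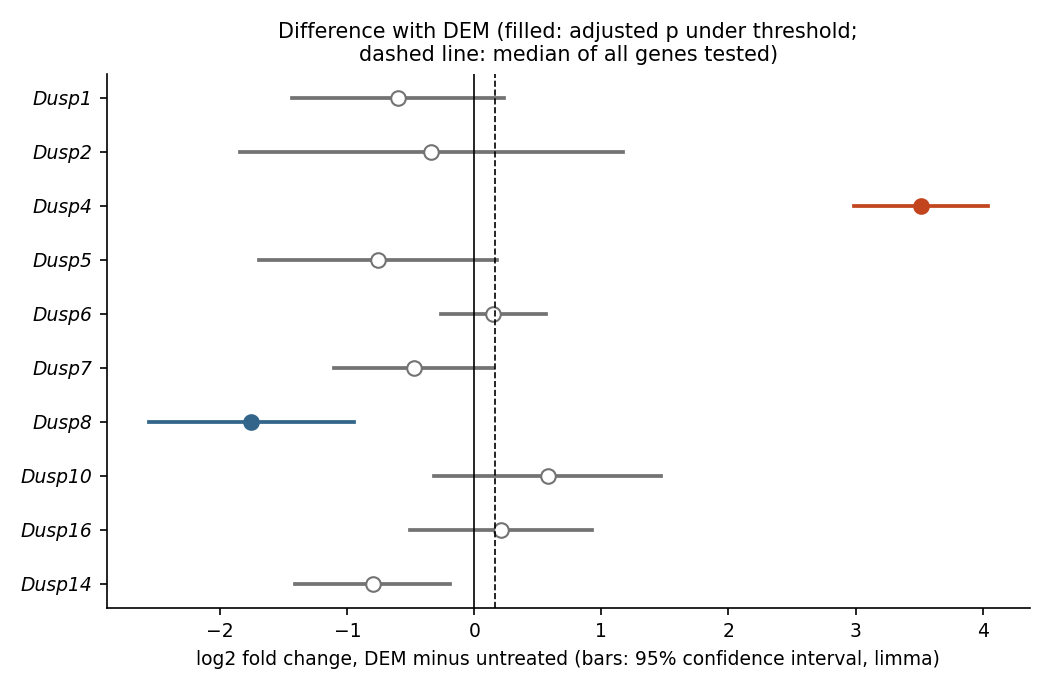
Log2 fold change (DEM minus untreated, 2 arrays each) of the 10 phosphatases with 95% confidence intervals from limma. Filled points passed the adjusted p threshold of 0.05, and the dashed line is the median of all genes tested (0.16). Dusp4 stood at 3.51, Dusp8 at -1.76, and the other intervals crossed 0 except that of Dusp14 (-1.41 to -0.19).

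The spread between replicate arrays differed from member to member. DEM arrays of Dusp4, Dusp10 and Dusp16 differed by 0.0131, 0.0080 and 0.0031 on the log2 scale, while those of Dusp5 and Dusp8 differed by 0.997 and 0.944. Between the untreated arrays, Dusp7 differed by 0.0039 and Dusp14 by 0.0255, while Dusp2 differed by 2.06 and Dusp10 by 1.11. Some uncalled members therefore had little spread and a small difference, such as Dusp6. Others had an interval that left room for a large change in either direction, such as Dusp2. Dusp14 was neither, since its interval of -1.41 to -0.19 excluded 0 although it was not called. Over all genes the SD of the difference between replicate arrays was 0.631 for DEM and 0.513 for untreated. The plot of the alternatives shows that leaving out either untreated array moved Dusp2 and Dusp10 further than any of the settings that kept 4 arrays, and leaving out a DEM array did not.

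**Figure D3:**
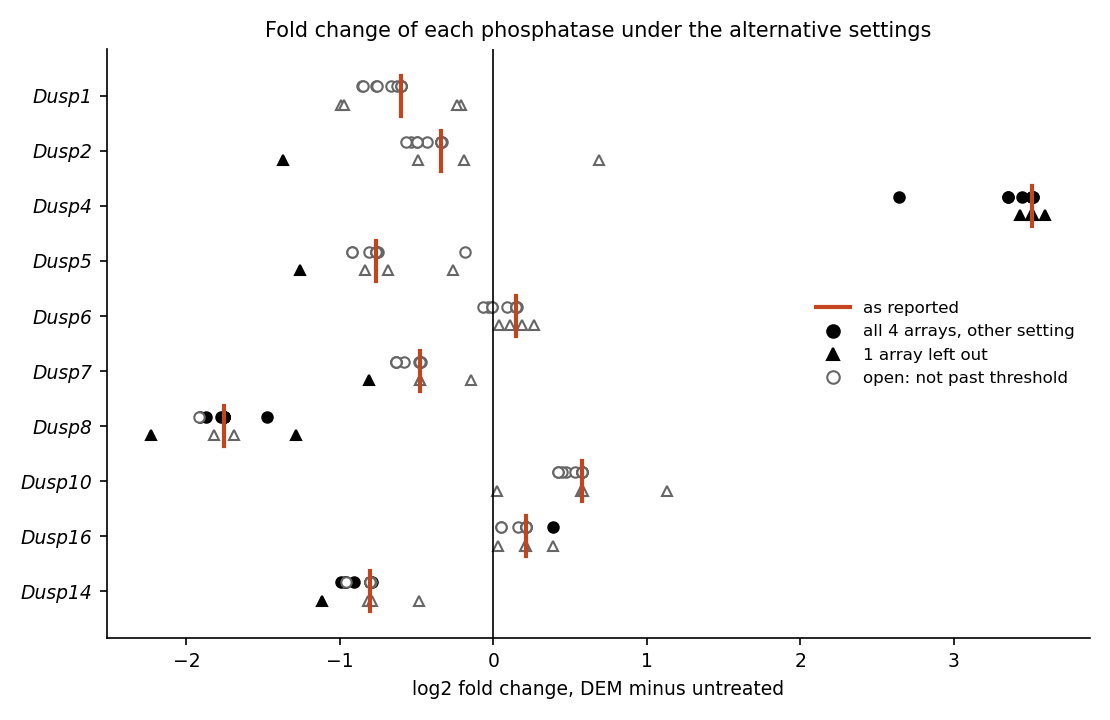
Log2 fold change (DEM minus untreated) of each phosphatase as reported (vertical bar), under 11 other settings with all 4 arrays (circles) and with 1 array left out (4 triangles). Filled symbols passed the adjusted p threshold. Dusp4 passed in 15 of 15, Dusp8 in 12 and Dusp14 in 8, and Dusp2 ran from -1.37 to 0.69.

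Sequence around the start sites was searched on both strands for motifs of stress and growth factor responsive transcription factors. RefSeq start site windows of build GRCm38.p6, running 250 bases upstream and 50 downstream of the start, were given for 9 of the 10 members, all but Dusp4. The cAMP response element, spelled TGACGTCA, was found on either strand in 1.79% of 32851 windows and in 2 member windows. Dusp8, the member that fell, held 2 matches, at -107 to -100 and -63 to -56 from the start, and Dusp1 held 1 at -143 to -136. The CArG box, which binds serum response factor, was found in 1.63% of windows and in 1 member window: Dusp5 held 2 adjacent matches at -82 to -73 and -72 to -63. The upstream 250 bases of these 3 genes are shown because they hold the less common motifs. Dusp8 lies at chr7:142095285-142095534 on the minus strand, Dusp1 at chr17:26508473-26508722 on the minus strand and Dusp5 at chr19:53528895-53529144 on the plus strand. Capitals mark the cAMP response elements in Dusp8 and Dusp1 and the CArG boxes in Dusp5, 5′ to 3′ toward the start site.
Dusp8: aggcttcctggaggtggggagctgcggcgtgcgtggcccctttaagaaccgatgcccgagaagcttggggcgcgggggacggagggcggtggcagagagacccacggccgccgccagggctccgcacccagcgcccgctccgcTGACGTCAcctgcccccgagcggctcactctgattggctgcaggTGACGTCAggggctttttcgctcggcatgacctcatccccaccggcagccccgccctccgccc
Dusp1: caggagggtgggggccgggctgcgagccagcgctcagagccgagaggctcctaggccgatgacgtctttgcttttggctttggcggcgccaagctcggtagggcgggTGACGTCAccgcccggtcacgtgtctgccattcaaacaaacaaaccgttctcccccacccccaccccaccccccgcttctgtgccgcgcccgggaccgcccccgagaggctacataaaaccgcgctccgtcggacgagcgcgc
Dusp5: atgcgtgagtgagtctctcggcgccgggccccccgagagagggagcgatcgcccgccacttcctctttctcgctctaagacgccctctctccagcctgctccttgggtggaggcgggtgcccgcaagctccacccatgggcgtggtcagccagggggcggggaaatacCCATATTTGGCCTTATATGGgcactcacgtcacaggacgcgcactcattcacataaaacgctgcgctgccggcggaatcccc

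The antioxidant response element core, spelled TGACNNNGC and bound by the electrophile-responsive factor Nrf2, matched in 12.4% of windows and in those of Dusp1 and Dusp5. In Dusp1 the match lay at -133 to -125, overlapping the GC box at -135 to -130. The AP-1 site TGANTCA matched in 7.81% of windows and in 0 of the 9 member windows, the heat shock element GAANNTTC in 7.86% and in Dusp16, and the GC box GGGCGG in 35.7% and in 8 of the 9. A match describes letters and not binding, and the lack of one says only that those letters are not in the window.

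The genes around these phosphatases were read from the same fit. Of 16 other listed dual specificity phosphatases, 10 were measured, 0 rose and 2 fell, beside 15.5% higher and 11.8% lower among all genes. Their median log2 fold change was 0.30. Dusp23 had levels of -3.72 and -2.98 on the DEM arrays and -1.70 and -1.48 on the untreated arrays, and fell 3.39-fold (limma adjusted p 0.0131), a log2 fold change of -1.76 that was -0.86 with normexp. Dusp26 was not well above background on either DEM array and was at least 2.20-fold lower (limma adjusted p 0.00329). It passed the filter through the untreated arrays alone, so the count of 2 became 1 with the filter on all 4 arrays, and with normexp its log2 fold change was -0.56, smaller than that bound. For a gene that was dim in 1 group the fold is a bound, taken against the dim probe's level or, where higher, against the faintest signal that counted as well above background on the same array. Of 8 other phosphatases that act on MAP kinases, 6 were measured and 1 rose, beside 15.5% of all genes called higher. Their median was 0.36. That gene was Ppm1b, a PP2C family serine/threonine phosphatase, with levels of 3.37 and 3.39 on the DEM arrays and 2.43 and 2.56 on the untreated arrays and a limma adjusted p of 0.0141.

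Of 14 listed MAP kinases, the substrates of the 10 phosphatases and their relatives, 10 were measured, 3 rose and 0 fell, beside 15.5% higher and 11.8% lower among all genes, with a median log2 fold change of 0.26. These counts were 0 and 0 with spike-in scaling, 2 and 2 with quantile normalization, cyclic loess or the percentile over detected probes, and 1 and 0 without either untreated array. Mapk9, which encodes JNK2, had levels of 1.28 and 1.06 on the DEM arrays and -0.47 and -0.75 on the untreated arrays, with no overlap. It rose 3.43-fold (limma adjusted p 0.00379), a log2 fold change of 1.78 for the brightest of 3 probes that was 0.81 for their mean (limma adjusted p 0.0453). Nlk rose by 1.16 ± 0.21 (SE, limma adjusted p 0.0135) and Mapk11, which encodes p38 beta, by 0.79 ± 0.23 (SE, limma adjusted p 0.0476) on the log2 scale, and Mapk11 passed in only 7 of 15 alternatives. Mapk3 (ERK1) and Mapk14 (p38 alpha), named after their values were seen, had log2 fold changes of -0.71 ± 0.23 and -0.58 ± 0.19 (SE), which did not pass (limma adjusted p 0.0647 and 0.0720) but passed as lower in 6 of 15 alternatives each. Of 7 MAP kinase kinases, 7 were measured, 1 rose and 1 fell, with a median of 0.11. Map2k6, an upstream kinase of p38, was at least 15.6-fold lower with DEM, where it was not well above background on either array (limma adjusted p 0.000644). It too passed the filter through the untreated arrays alone, so with the filter on all 4 arrays it was not tested and 0 of these kinases fell, and with normexp its log2 fold change was -2.34, smaller than that bound. Map2k3, another upstream p38 kinase, rose by 0.85 ± 0.19 (SE, limma adjusted p 0.0218) on the log2 scale.

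Genes that ERK signalling is known to switch on or feed back through were divided. Of 19 listed, 18 were measured, 7 rose and 6 fell, beside 15.5% higher and 11.8% lower among all genes, with a median log2 fold change of 0.50. Fosl1, an AP-1 subunit, had levels of 4.30 and 4.10 on the DEM arrays and -0.31 and 0.87 on the untreated arrays, and rose 15.2-fold (limma adjusted p 0.00237), a log2 fold change of 3.92 that was 3.33 without untreated 1 and 4.51 without untreated 2. Areg, which encodes an EGF receptor ligand, rose by 2.27 ± 0.27 (SE, limma adjusted p 0.00381, and 1.44 with normexp) and Phlda1 by 1.57 ± 0.20 (SE, limma adjusted p 0.00441) on the log2 scale. Spry1, a feedback inhibitor of receptor tyrosine kinase signalling, had levels of -0.94 and -2.13 on the DEM arrays and 1.87 and 1.81 on the untreated arrays, and fell 10.4-fold (limma adjusted p 0.00362), a log2 fold change of -3.37 that was -3.97 without DEM 1 and -2.78 without DEM 2. Among the inducible nuclear and the cytoplasmic phosphatases, Dusp4 rose, whereas Dusp1, Dusp2, Dusp5, Dusp6 and Dusp7 did not pass. Whether Dusp4 is linked to the ERK output genes, of which 7 rose and 6 fell, was not tested. Without either untreated array the calls of Dusp23, Nlk, Mapk11, Map2k3 and Ppm1b were lost, and those of Mapk9, Fosl1, Areg, Phlda1 and Spry1 held. The filter on dim probes was not rerun in these fits. Dusp26 and Map2k6 had passed it through the untreated arrays alone, so these fits give no check of them. The ERK output genes numbered 5 higher and 1 lower without untreated 1, and 5 and 1 without untreated 2, fits that called 6.87% and 5.81% of all genes. With spike-in scaling they numbered 1 higher and 2 lower, beside 5.09% of all genes called, and Mapk9, Areg and Phlda1 lost their calls (limma adjusted p 0.279, 0.0988 and 0.308), as did Dusp23, Nlk, Mapk11, Map2k3 and Ppm1b.

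**Figure D4:**
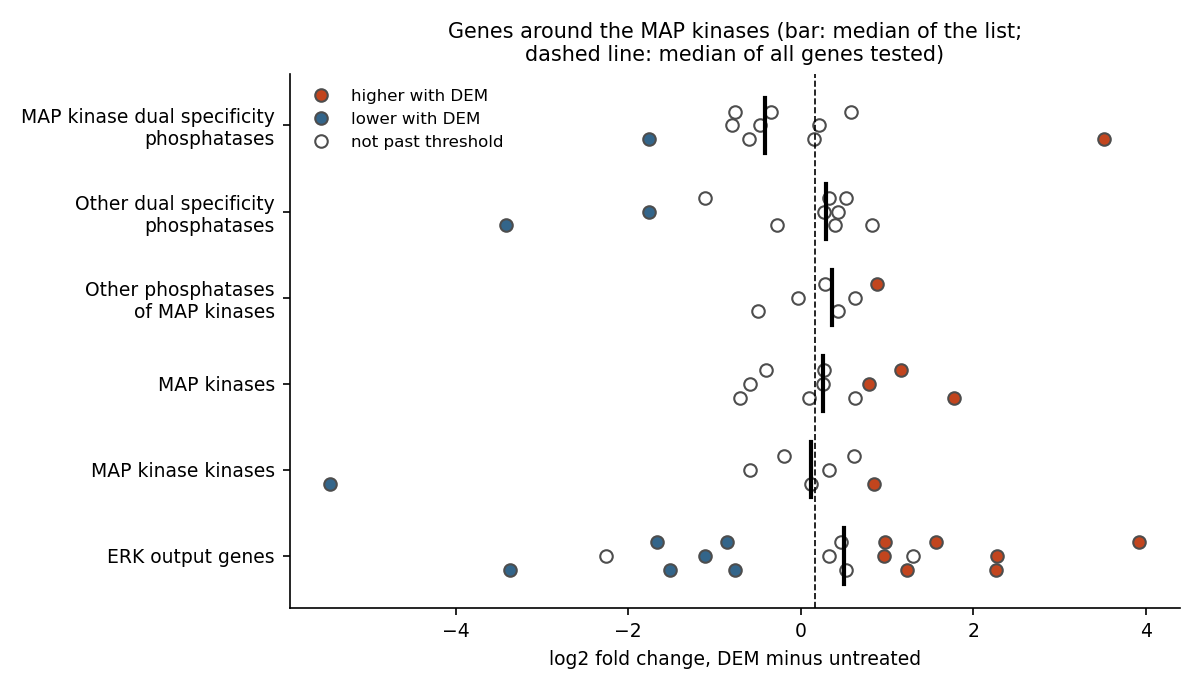
Log2 fold change (DEM minus untreated) of the 10 MAP kinase dual specificity phosphatases and of 5 lists of related genes, 1 point per measured gene, with list medians as bars and the median of all genes tested (0.16) as a dashed line. Filled points passed the adjusted p threshold of 0.05. Map2k6 and Dusp26 are drawn at fitted values although their DEM arrays were not well above background; the phosphatases had 1 higher, 1 lower and a median of -0.41, and the ERK output genes had 7 higher and 6 lower.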

How the data were processed

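RNA from 4 samples (500 ng each, per the labels) was Cy3-labelled, and each sample was hybridised alone to a custom Agilent mouse array. Per the file headers, the deposited intensity values came from Agilent Feature Extraction 10.7.3.1, which detrended background and replaced low signals by surrogates. The authors' deposited table holds log2 values. For 100% of 61257 probes they equalled log2 of the processed signal, shifted by 1 constant per array, to within 0.01, and column medians were -4.30 and -4.36 (DEM) and -4.39 and -4.35 (untreated). It was used as an alternative, and its direction needs no choice since each column is 1 array.

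Control spots (1319 of 62976) and 13 to 68 outlier spots per array were left out, and no spot was saturated. Each array's log2 signal was set relative to its 75th percentile, controls excluded. Of 61307 probes, 28910 were named through RefSeq accession, 4568 by symbol, 1231 by synonym, and 26598 kept the files' name. The 31771 probes well above background on at least 2 arrays were kept, and the brightest stood for each gene. Groups were compared with limma 3.58.1 (lmFit, eBayes with trend, 2 residual and 4.04 prior degrees of freedom) in R 4.3.3, two-sided, with Benjamini-Hochberg adjustment. The fit was also run on simulated data. There, a far smaller share of genes was changed than was called here, and the spread was shuffled across genes. That run therefore checks the code and not the error rate in these data. Precision is limited by 2 arrays per group. The members and lists were chosen with earlier results of these data known. Every member was named; from each list, up to 4 called genes with the smallest adjusted p, and any gene a small count needed. The alternatives changed background correction, scaling, filter, probe choice, variance model, replicate block, source of values and arrays.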

Additional observations from a re-analysis of the deposited data

How the results depend on the processing

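The number of members called higher was 1 and became 2 with normexp background correction, and it stayed at 1 in the other 14 alternatives. The number called lower was 1; it became 2 with normexp, quantile normalization, cyclic loess, the percentile over detected probes, the filter on all 4 arrays, the mean of probes and the replicate block, 0 with spike-in scaling, and 0 to 3 with 1 array left out. Over all genes, those called higher numbered 3800 and became 6431 with normexp, 2525 with cyclic loess, 362 with spike-in scaling, 17240 with no filter, and 636 to 4458 with 1 array left out. Those called lower numbered 2892 and became 887 with spike-in scaling and 790 to 3787 with 1 array left out. The causes were not tested. The spike-in level itself differed between replicate arrays (75th percentile minus spike-in of -2.79 and -3.70 on DEM, -2.76 and -3.41 on untreated). The log2 fold change changed sign for Dusp6 under 4 scalings (-0.032 with quantile, -0.065 with cyclic loess, -0.0098 with spike-in, -0.0085 with the percentile over detected probes) and for Dusp2 with 1 array left out (-1.37 to 0.69).

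With the replicate number as a block, 4455 genes were higher and 3362 lower. The labels do not pair the samples, and the replicate differences of the groups correlated at 0.0846 across genes. A slide block was not run because all 4 arrays share 1 slide and 1 scan.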
